A study of Ovis aries with 12 samples.

Results

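Right ventricles of lambs with a shunt were compared with those of control lambs, both aged 4 to 6 weeks, across all genes of a count table. All 4 libraries titled as shunt and all 4 titled as control were taken, which makes 8 of the 12 libraries of the series. The remaining 4 are fetal and entered only the shared estimate of spread. Each library came from snap-frozen sheep right ventricular free wall, from which stranded mRNA libraries were made and sequenced as read pairs. The shunt lambs had been operated on before birth, when a graft was placed between the aorta and the pulmonary artery, which gave them a congenital shunt from left to right and a pressure load on that ventricle. The labels describe the control lambs only as controls of the same age. They give no breed or sex, do not say whether controls had a sham operation, and do not say that the libraries came from separate animals. The p-values for genes thus rest on how far libraries differ within a group, fetal libraries included, and that variation may be technical.

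Before birth the right ventricle works against a high pulmonary pressure, and after birth the load on it normally falls. An aortopulmonary shunt keeps flow and pressure in the lung circulation high, so the ventricle wall stays loaded. In heart muscle under load the natriuretic peptide genes, matrix genes and genes of fuel use are the classic readouts, and heart muscle is also rich in mitochondria, whose own genome encodes a small set of respiratory chain proteins. The shunt against control comparison asks which genes differ in this loaded wall.

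The libraries held heart muscle RNA, and 2 of the 4 shunt libraries stood apart. Of 13 cardiomyocyte markers 3 were in the table by name, and MYL2, the ventricular myosin light chain, was at 8599 to 14010 CPM (counts scaled to a common library size, adjusted by TMM, the trimmed mean of M values) in the controls and at 10034 to 16353 in the shunt libraries. TPM1 was at 7009 to 7705 CPM in the controls and at 3756, 4821, 8538 and 8047 in shunt 1 to shunt 4. MYOZ2 was at 1076 to 1508 CPM in the controls and at 779, 1516, 1976 and 1296 in shunt 1 to shunt 4. Transcripts of the 13 mitochondrially encoded protein genes took 44.4%, 46.6%, 50.0% and 43.5% of all counts in the controls, and 72.6%, 71.4%, 54.6% and 45.6% in the shunt libraries. Both shunt 1 and shunt 2 were thus well above every control, and shunt 4 lay among the controls. The means were 46.1% ± 2.88 and 61.1% ± 13.1 (SD, n = 4 each), and a two-sided exact permutation test gave p = 0.0857, where 0.0286 is the smallest p that 4 against 4 libraries allow. The difference of the means was 14.9 percentage points, and 4.00 without shunt 1 and shunt 2. Counts on all other genes numbered 10702663 to 24976602 in the controls, 7152139 and 7140136 in shunt 1 and shunt 2, and 19408017 and 14468424 in shunt 3 and shunt 4. A principal component analysis of log2 CPM of the 8 libraries put shunt 1 at 71.8 and shunt 2 at 93.8 on its first axis, which held 42.8% of the variance, while the remaining 6 libraries ran from -47.3 to -5.36. The labels give no batch, date or RNA quality, and the part of these 2 libraries in the differences was measured by leaving them out, with both values given below.

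**Figure D1:**
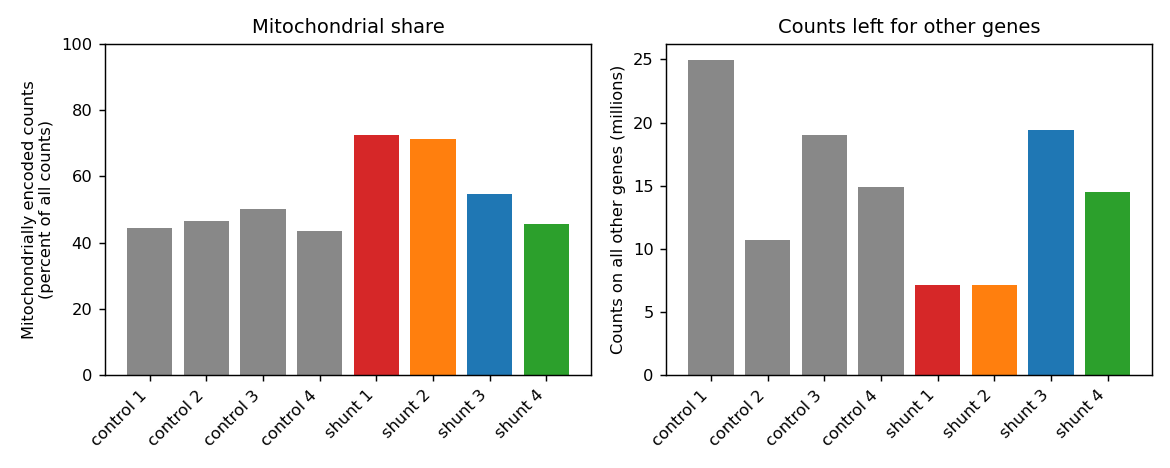
Bars give the percent of all counts that fell on mitochondrially encoded protein genes (left) and the counts left for all other genes (right), 1 bar per library, controls in grey. Shunt 1 and shunt 2 have the highest shares, 72.6% and 71.4%, and the fewest other counts.

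Across the genome 522 of 13065 tested genes were called different between shunt and control libraries, which is 4.00% (edgeR quasi-likelihood test, Benjamini-Hochberg adjusted p under 0.05). Of these 301 were higher in the shunt libraries (2.30%) and 221 lower (1.69%), and 3662 of the 13065 had an unadjusted p under 0.05. Counts of list members below, called or at that unadjusted p, are to be read against these numbers for all genes. With library totals in place of TMM scaling the median of all genes moved to -0.59 on the log2 scale and the split became 13 higher and 582 lower, so directions below are relative to the bulk of genes. The smallest change among called genes was 0.59 and the median size 1.14 on the log2 scale. In 1585 genes (12.1%) no shunt library overlapped a control library, 792 of them higher (6.06%) and 793 lower (6.07%). The standard deviation of log2 CPM was larger in the shunt than in the control group for 80.0% of genes, with medians of 0.53 and 0.29. The edgeR fit took a single spread per gene over all 12 libraries, so its p-values do not measure the spread of the shunt group alone.

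**Figure D2:**
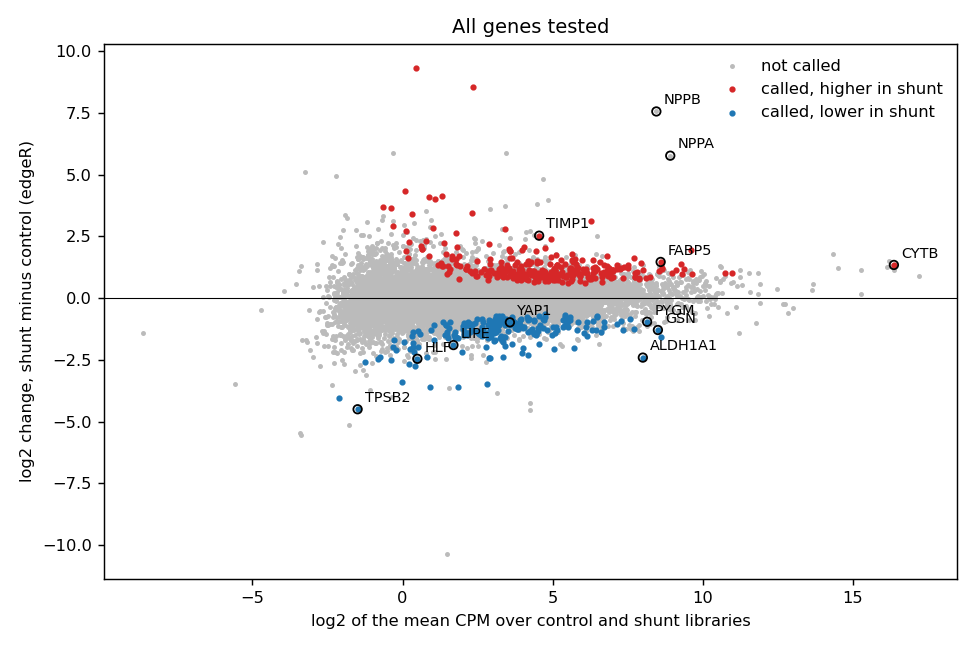
Each point is 1 of the 13065 tested genes, with its log2 change, shunt minus control, against its mean level, and the called genes are marked. Called genes lie on both sides, 301 higher and 221 lower in the shunt libraries.

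All 4 shunt libraries lay on the same side as the call for nearly every called gene, but not equally far out. Of the 301 genes called higher, 301, 300, 299 and 295 were above the control mean in shunt 1 to shunt 4, with median differences of 1.23, 1.44, 0.83 and 0.56 on the log2 scale. All 221 genes called lower were below it in each shunt library, with medians of -1.44, -1.59, -0.94 and -0.88. Shunt 1 and shunt 2 were therefore the farthest from the controls in both directions. Since the same libraries chose the calls, these differences are a description.

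The number of calls depended strongly on single libraries. It was 8, 6 and 9 without control 1, control 2 or control 4, 543 without control 3, 36 and 23 without shunt 1 or shunt 2, and 1784 and 2169 without shunt 3 or shunt 4. Without both shunt 1 and shunt 2 it was 64 (0.466% of 13721 tested), 45 of them higher (0.328%) and 19 lower (0.138%), and 34 of the 64 were among the 522. In each of these fits all 522 genes kept their sign. The same libraries chose the 522 and each fit reused most of them, so kept signs say little of stability. Of the 477 tested genes with a symbol 24 were called (5.03%), 12 in each direction, and "called" below means called in this edgeR fit. Among them TIMP1 kept its call in all 8 fits that left out 1 library, and SLC25A5 and TIMP1 kept theirs without shunt 1 and shunt 2. Without control 1, control 2, control 4 or shunt 1 the other 23 lost their calls, with adjusted p-values of at most 0.128, 0.129, 0.150 and 0.1005. Without shunt 2 TIMP1 and SLC25A5 remained called and the highest adjusted p was 0.116, whereas all 24 remained called without shunt 3 or without shunt 4 and 21 without control 3, where CYTB, FABP5 and PYGM lost theirs (highest adjusted p 0.0599). Other settings ended more of the 24 calls. Library totals kept 12, of which only TIMP1 was higher in the shunt libraries, and moved 14 of the log2 changes by over 1.5 times. The fit of the 8 libraries alone and the fit with the mitochondrial share as a covariate each kept TIMP1 only. With limma voom and sample quality weights 5 remained (TIMP1, SLC25A5, FGF7, GSN and C3H12orf29). DESeq2 called all 24, and 1975 genes in all (15.1%), among them 35 of the 111 genes with a symbol that are named here without an edgeR call. Beyond the threshold the nearest genes with a symbol were YWHAZ and TOB2 (adjusted p = 0.0506 for both) and AVPR1A (0.0515).

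**Figure D3:**
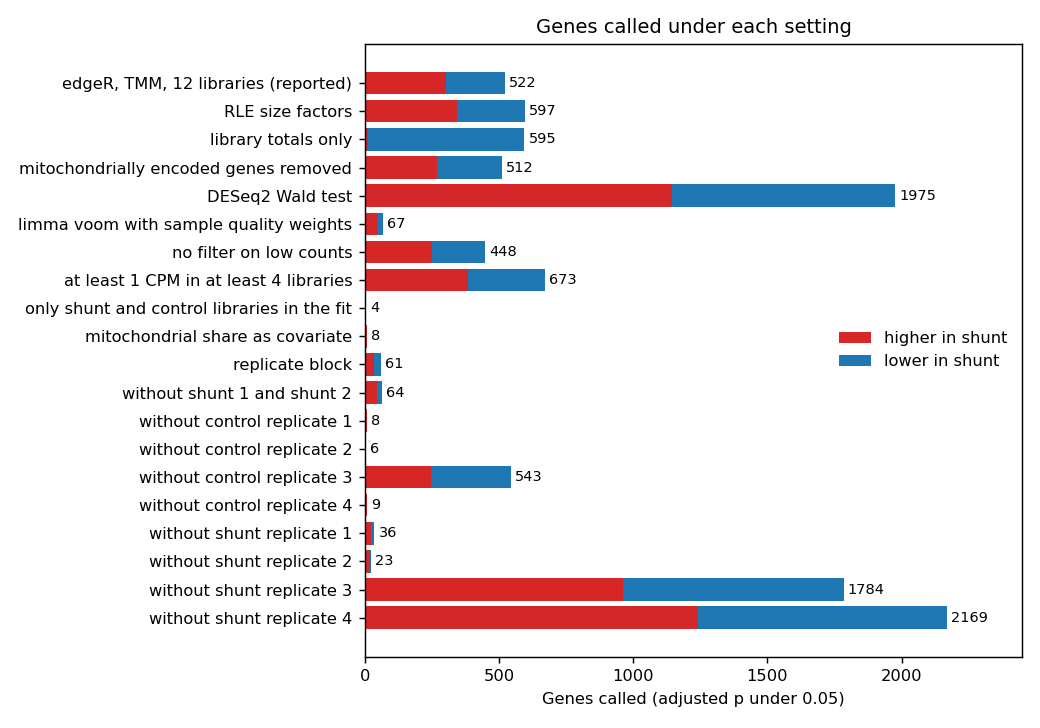
Bars give the number of genes called higher and lower in the shunt libraries under each setting, at an adjusted p under 0.05. The count runs from 4 with only shunt and control libraries in the fit to 2169 without shunt 4, around 522 for the values given in the text.

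TIMP1 was the clearest change with a name: this secreted inhibitor of matrix metalloproteinases, the enzymes that cut the extracellular matrix, was higher in every shunt library. It was at 6.10, 6.70, 9.65 and 5.29 CPM in the controls and at 30.8, 42.8, 33.9 and 52.5 CPM in the shunt libraries. The lowest shunt library lay above the highest control by a wide margin, and shunt 1 and shunt 2 did not stand out from shunt 3 and shunt 4. The log2 change, shunt minus control in the edgeR fit with its standard error (SE), was 2.53 (standard error 0.228, adjusted p = 0.000209), and without shunt 1 and shunt 2 it was 2.62 (adjusted p = 0.000439). FURIN, a protease that trims precursors of matrix enzymes and growth factors into active forms, was lower. It was at 39.0, 23.4, 16.1 and 31.5 CPM in the controls and at 13.5, 13.9, 14.4 and 15.8 CPM in the shunt libraries. The 4 shunt values lay close together just under the lowest control, control 3. The log2 change was -0.93 (standard error 0.226, adjusted p = 0.0428), or -0.89 (adjusted p = 0.151) without shunt 1 and shunt 2.

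Of the 9 tested matrix proteases and inhibitors TIMP1 rose, FURIN fell and 7 were not called. MMP2, the gelatinase made mainly by fibroblasts, was at 79.6, 47.9, 66.6 and 97.9 CPM in the controls and at 40.5, 20.3, 27.1 and 62.9 CPM in the shunt libraries. Shunt 4 and control 2 overlapped, and the log2 change of -0.95 (standard error 0.301, adjusted p = 0.0723) missed the threshold. MMP14, a membrane protease that activates MMP2, had a log2 change of -0.38 (standard error 0.214, adjusted p = 0.254). DESeq2 called MMP2 too, lower with an adjusted p of 0.0286. The median of the 9 was -0.17 on the log2 scale, or -0.77 with library totals, against 0.01 and -0.59 for all genes. Of the 6 tested fibroblast and matrix genes edgeR and DESeq2 called 0, and 2, SPP1 and CCN2, had an unadjusted p under 0.05. SERPINF1, an inhibitor of vessel growth, had a log2 change of -0.97 (standard error 0.496, adjusted p = 0.216), with shunt 1 above every control and the other shunt libraries below. SPP1, osteopontin, had one of 2.25 (standard error 0.948, adjusted p = 0.151), or -0.07 without shunt 4. Among them BGN, the proteoglycan biglycan, was at 57.5, 56.3, 69.9 and 57.9 CPM in the controls and at 50.9, 10.2, 56.2 and 56.6 CPM in the shunt libraries, with only shunt 2 far below the controls. The sum of the fibroblast list ran from 1671 to 2061 CPM in the controls and from 1414 to 2137 in the shunt libraries, and its defining members SPARC and DCN overlapped between groups.

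Transcripts of the mitochondrial genome were all higher on average, but mostly through shunt 1 and shunt 2. All 13 had log2 changes above 0, as did 50.7% of all tested genes, and their median was 1.22. It was 0.39 under scaling by library totals and 0.31 without shunt 1 and shunt 2. CYTB, a subunit of respiratory complex III, was called. It was at 43997, 47824, 56192 and 44210 CPM in the controls and at 173240, 154660, 99649 and 59820 CPM in the shunt libraries. The shunt values were in the order of the mitochondrial shares, and shunt 4 was just above the highest control. Its log2 change was 1.34 (standard error 0.355, adjusted p = 0.0496), and without shunt 1 and shunt 2 0.70 (adjusted p = 0.299). The other 12 were not called by edgeR, whereas DESeq2 called 12 of the 13 (ND4L was the exception). Of the 13 genes 11 overlapped between groups, whereas 12.1% of all tested genes did not overlap. All 13 had an unadjusted p under 0.05 in edgeR. ND2, ATP6, ND4, COX2, ND5, COX3, ND6, ND1, ND4L, ATP8 and COX1 had log2 changes of 1.49, 1.31, 1.27, 1.24, 1.22, 1.13, 1.15, 1.15, 1.02, 1.01 and 0.91, with edgeR adjusted p-values from 0.0581 to 0.121. ND3, a small subunit of complex I, was at 8816, 8379, 11610 and 8669.6 CPM in the controls and at 36007, 69379, 13465 and 9134 CPM in the shunt libraries. Its 4 shunt values spread from inside the control range to several times above it, with a log2 change of 1.77 (standard error 0.506, adjusted p = 0.0570) and 0.24 (adjusted p = 0.709) without shunt 1 and shunt 2. Within the mitochondrial transcripts alone, no gene's share passed a test. Of 13 two-sided exact permutation tests the lowest p was 0.0571, for COX1 at 24.1% ± 0.76 in controls and 20.7% ± 3.05 in shunt libraries (SD, n = 4), with an adjusted p of 0.619. The smallest p these tests allow is 0.0286, so 1 gene alone could not have passed after adjustment over 13. The tests thus do not show that the shares were alike.

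Among nuclear genes for mitochondrial carriers, expression and import, 2 of 9 tested genes were called higher and none lower. Of all tested genes 2.30% were called higher and 1.69% lower. SLC25A5, which exchanges ADP for ATP across the inner membrane, was at 6.82, 5.37, 6.21 and 6.34 CPM in the controls and at 13.9, 10.4, 15.6 and 13.5 CPM in the shunt libraries. Every shunt library was above every control, with shunt 3 the highest. In the fit the log2 change was 1.11 (standard error 0.198, adjusted p = 0.0276), or 1.21 (adjusted p = 0.0212) without shunt 1 and shunt 2. With library totals it was 0.53 (adjusted p = 0.249). The call was also lost in the fit of the 8 libraries alone (0.117) and with the covariate (0.0580). This gene has close copies in mammalian genomes, so reads may be split among them. PUS1, an enzyme that modifies uridines in transfer RNA, was at 20.1, 19.1, 23.3 and 16.6 CPM in the controls and at 70.5, 66.0, 34.5 and 31.1 CPM in the shunt libraries. The highest were shunt 1 and shunt 2, and shunt 3 and shunt 4 were still above all controls. This was a log2 change of 1.35 (standard error 0.271, adjusted p = 0.0344), or 0.71 (adjusted p = 0.124) without shunt 1 and shunt 2.

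Other mitochondrial genes differed among the shunt libraries. SLIRP, which stabilises mitochondrial messenger RNA, was above all controls in each shunt library but not called by edgeR at 0.66 (standard error 0.217, adjusted p = 0.0782), whereas DESeq2 called it (adjusted p = 0.0339). VDAC1, the main pore of the outer membrane, went the other way, at 249.5, 264, 197 and 318 CPM in the controls and at 34.8, 57.8, 188 and 199 CPM in the shunt libraries. Again shunt 1 and shunt 2 stood out, far below the controls, with shunt 3 and shunt 4 near the lowest of them. The fitted log2 change was -1.10 (standard error 0.427, adjusted p = 0.116), or -0.43 (adjusted p = 0.303) without shunt 1 and shunt 2. Of 7 tested nuclear genes of oxidative phosphorylation edgeR and DESeq2 called 0, with 1 at an unadjusted p under 0.05, and log2 changes ran from -0.31 (ATP5MC2) to 0.60 (ATP5PD), with -0.22 for ATP5MC1 and 0.23 for NDUFA12. ATP5PD, a subunit of ATP synthase, was at 1416, 1492, 1711 and 1608 CPM in the controls and at 2266, 3570.0, 2052 and 1565 CPM in the shunt libraries, with shunt 2 the highest and shunt 4 inside the control range.

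**Figure D4:**
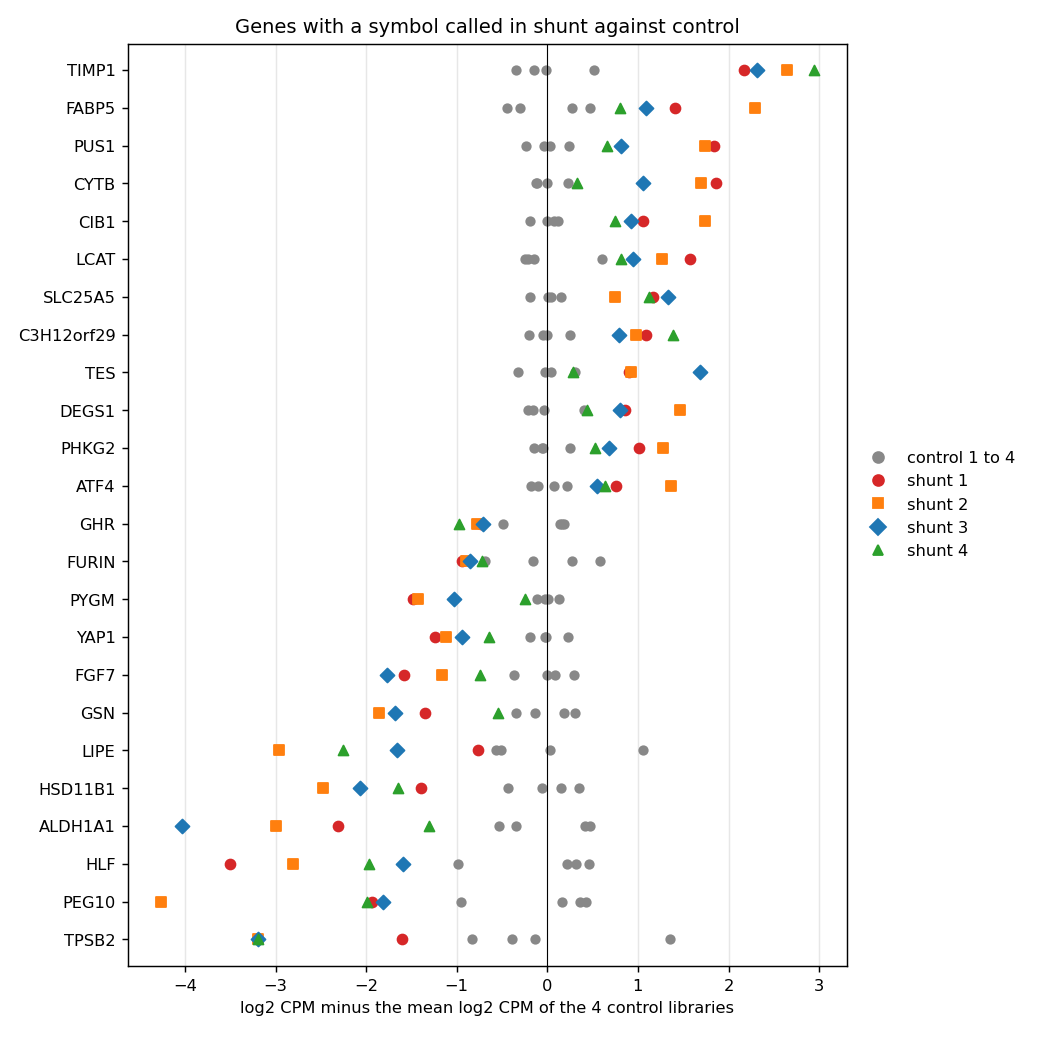
Each row is 1 of the 24 called genes with a symbol, and the points give each library's log2 CPM minus the control mean, controls in grey. Shunt 1 and shunt 2 lie farther out than shunt 3 and shunt 4 for genes such as PUS1 and CYTB, whereas the 4 libraries lie together for TIMP1 and SLC25A5.

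Genes of fat handling moved in both directions. FABP5, a carrier of fatty acids inside the cell, was at 277, 146, 161 and 242 CPM in the controls and at 531, 976, 425 and 348 CPM in the shunt libraries. All shunt libraries exceeded the controls, shunt 2 by the most. On the log2 scale the change was 1.46 (standard error 0.341, adjusted p = 0.0403), or 0.88 (adjusted p = 0.196) without shunt 1 and shunt 2. FABP5 also has close copies, and how the counting handled them is not known here. It was the only called gene among 9 tested for fatty acid oxidation and lipid uptake, and their median log2 change was 0.13, or -0.50 with library totals. HADHA, a subunit of the trifunctional enzyme of fatty acid oxidation, was lower in all 4 shunt libraries but not called at -0.46 (standard error 0.229, adjusted p = 0.201), and CPT1B, the muscle gatekeeper of fatty acid entry into mitochondria, had 0.13 (standard error 0.228, adjusted p = 0.732).

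LIPE, the hormone-sensitive lipase that releases fatty acids from stored fat, was lower. It was at 9.56, 3.17, 3.06 and 4.64 CPM in the controls and at 2.66, 0.528, 1.40 and 0.899 CPM in the shunt libraries. All shunt libraries were below the lowest control, and control 1 was well above the other controls. The log2 change was -1.90 (standard error 0.496, adjusted p = 0.0487), or -2.18 (adjusted p = 0.0936) without shunt 1 and shunt 2. LCAT, which esterifies cholesterol on lipoproteins in plasma, was higher, at 12.9, 13.8, 23.4 and 13.2 CPM in the controls and at 45.8, 37.0, 29.7 and 27.0 CPM in the shunt libraries. No library overlapped, although control 3 was near the lowest shunt library, and the log2 change was 1.13 (standard error 0.246, adjusted p = 0.0374), or 0.82 (adjusted p = 0.149) without shunt 1 and shunt 2. Of 9 tested genes of lipid storage, lipolysis and cholesterol these 2 were called, and SCD, the desaturase that makes monounsaturated fatty acids, had a log2 change of -1.44 (standard error 0.408, adjusted p = 0.0555) with control 3 inside the shunt range. DGAT1, which completes triglyceride synthesis, had 0.57 (standard error 0.169, adjusted p = 0.0631). DESeq2 called both SCD and DGAT1 (adjusted p = 0.00821 and 0.0132). DEGS1, a desaturase that makes ceramide, was at 18.1, 18.8, 27.7 and 20.5 CPM in the controls and at 38.0, 57.8, 36.6 and 28.5 CPM in the shunt libraries. Each shunt library was above each control, and the log2 change was 0.92 (standard error 0.232, adjusted p = 0.0457), or 0.59 (adjusted p = 0.197) without shunt 1 and shunt 2.

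Fat cells could contribute to such genes, and in bulk tissue fewer cells of a type and less RNA per cell cannot be told apart. Of 12 adipocyte markers 7 were in the table and 5 tested, of which edgeR called LIPE, and DESeq2 called LIPE and LPL lower and FABP4 and PPARG higher. PPARG, the regulator of fat cell formation, was at 3.44, 1.88, 3.75 and 3.56 CPM in the controls and at 10.3, 7.57, 5.13 and 4.35 CPM in the shunt libraries. Every shunt library was above every control, with shunt 1 and shunt 2 the highest, and the log2 change was 1.10 (standard error 0.358, adjusted p = 0.0769), or 0.56 (adjusted p = 0.483) without shunt 1 and shunt 2. PLIN1 and RETN, which mark fat cells, had at most 8 counts summed over a group, and ADIPOQ was at no more than 1.30 CPM in any library. FABP4, another fatty acid carrier of fat cells and vessel lining, was at 8.28, 0.872, 0.469 and 3.73 CPM in the controls and at 36.2, 63.1, 113 and 3.30 CPM in the shunt libraries. Shunt 1 to shunt 3 were above all controls and shunt 4 was among them, and the log2 change of 3.99 (standard error 1.17, adjusted p = 0.0713) missed the threshold in edgeR. LPL, the lipase that frees fatty acids from circulating lipoproteins, was at 476, 247, 136 and 274 CPM in the controls and at 59.9, 182, 113 and 122 CPM in the shunt libraries. Control 3 and shunt 2 overlapped, and the log2 change was -1.25 (standard error 0.360, adjusted p = 0.0579). The sum of the list ran from 143 to 498 CPM in controls and from 110.4 to 254 in shunt libraries. LPL made most of this sum in the controls, and LPL and FABP4 together did in the shunt libraries. It is thus no measure of the list as a whole, and the part of fat cells in the lipid changes was not tested.

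PYGM was lower and PHKG2 higher, both of them genes of glycogen breakdown. PYGM, the muscle form of glycogen phosphorylase, was at 377, 410.3, 346 and 368 CPM in the controls and at 134, 139, 184 and 316 CPM in the shunt libraries. The lowest were shunt 1 and shunt 2, and shunt 4 came close to the lowest control. Its log2 change was -0.96 (standard error 0.244, adjusted p = 0.0462), or -0.60 (adjusted p = 0.183) without shunt 1 and shunt 2. PHKG2, a catalytic subunit of phosphorylase kinase best known from liver and testis, was at 9.64, 9.05, 11.9 and 9.62 CPM in the controls and at 20.2, 24.3, 16.0 and 14.4 CPM in the shunt libraries. All shunt libraries exceeded the controls, and the log2 change was 0.89 (standard error 0.207, adjusted p = 0.0398), or 0.57 (adjusted p = 0.184) without shunt 1 and shunt 2. Of 9 tested genes of glycolysis, glycogen and cytosolic NADPH only PYGM was called, and PHKG2 was not in that list. IDH1, which makes cytosolic NADPH, had a log2 change of -0.79 (standard error 0.322, adjusted p = 0.127) and was called lower with library totals (adjusted p = 0.0405). PYGL, the liver form of the phosphorylase, had a log2 change of -0.56 (standard error 0.230, adjusted p = 0.129), and GAPDH, a glycolytic enzyme, one of 0.54 (standard error 0.235, adjusted p = 0.150), or -0.12 with library totals.

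In the list of growth factors and receptors 2 of 9 tested genes fell and none rose, against 1.69% and 2.30% of all tested genes. Of the 9, 8 had a negative log2 change, against 49.3%. The list also holds MTOR, MYC, MEF2C and PIM1, which are kinases and transcription factors. Its counts and median are thus not those of growth factors and receptors alone. FGF7, a fibroblast-made factor that acts on epithelia, was at 52.8, 49.6, 38.4 and 60.9 CPM in the controls and at 16.5, 22.2, 14.5 and 29.7 CPM in the shunt libraries. The groups were well separated in all 4 libraries. In the fit the log2 change was -1.28 (standard error 0.238, adjusted p = 0.0336), or -1.21 (adjusted p = 0.0928) without shunt 1 and shunt 2. GHR, the growth hormone receptor, was at 15.5, 15.2, 9.82 and 15.7 CPM in the controls and at 8.26, 8.01, 8.45 and 7.01 CPM in the shunt libraries. The shunt libraries were tightly grouped under the lowest control, control 3, which was itself far below the other controls. This was a log2 change of -0.83 (standard error 0.209, adjusted p = 0.0457), or -0.89 (adjusted p = 0.118) without shunt 1 and shunt 2. FGF2, a growth factor of vessels and muscle, did not overlap either but was not called by edgeR, at -0.79 (standard error 0.251, adjusted p = 0.0731). DESeq2 called it (adjusted p = 0.0261). MET, the receptor of hepatocyte growth factor, had -1.29 (standard error 0.620, adjusted p = 0.187). The median of the 9 was -0.54 on the log2 scale, or -0.95 with library totals, against 0.01 and -0.59 for all genes.

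YAP1, a transcriptional coactivator that the Hippo pathway holds back and that promotes growth of heart muscle, was lower in all shunt libraries. It was at 15.5, 15.7, 13.8 and 18.5 CPM in the controls and at 6.62, 7.22, 8.17 and 10.0 CPM in the shunt libraries. No library overlapped and the log2 change was -0.98 (standard error 0.186, adjusted p = 0.0336), or -0.82 (adjusted p = 0.0883) without shunt 1 and shunt 2. LATS1, the kinase that holds YAP1 out of the nucleus, had a log2 change of -0.33 (standard error 0.236, adjusted p = 0.369). CCN2, a matrix-associated growth factor and a target of YAP1, was at 2.26, 1.24, 2.54 and 3.83 CPM in the controls and at 1.64, 3.43, 18.6 and 6.67 CPM in the shunt libraries. Shunt 3 was far above the rest and shunt 1 lay among the controls, and the log2 change of 1.64 (standard error 0.667, adjusted p = 0.132), not called, was 0.69 without shunt 3. Of 7 tested genes of TGF-beta, BMP and activin signalling only FURIN was called, and SMAD4, the shared mediator of these signals, was at -0.73 (standard error 0.232, adjusted p = 0.0733), which DESeq2 called (adjusted p = 0.0312). INHBA, a subunit of activin, had 1.09 (standard error 0.602, adjusted p = 0.246) and BMP4, a bone morphogenetic protein, 0.43 (standard error 0.292, adjusted p = 0.348).

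Of 6 tested D cyclins, their kinases and inhibitors edgeR called 0, with 1 at an unadjusted p under 0.05, and DESeq2 called CDK4 (adjusted p = 0.0379). CDK4, a kinase of G1 phase, was at 26.1, 24.0, 30.2 and 24.9 CPM in the controls and at 42.2, 57.4, 32.3 and 30.3 CPM in the shunt libraries. Each shunt library was above each control, the log2 change was 0.62 (standard error 0.202, adjusted p = 0.0762), and without shunt 1 and shunt 2 it was 0.23 (adjusted p = 0.488). CCND2, CCND3 and CDK2, of the same phase, had log2 changes of 0.20, -0.16 and -0.17, with adjusted p-values from 0.73 to 0.783. CDK1, the kinase of mitotic entry, had a log2 change of -1.07 (standard error 0.568, adjusted p = 0.230), and AURKA, a spindle kinase, one of 0.61 (standard error 0.426, adjusted p = 0.364), which was -0.10 with library totals and -0.19 without shunt 1 and shunt 2. PEG10, a gene expressed from the paternal copy and derived from a retroelement, was low in all libraries, at 1.40, 1.61, 0.607 and 1.69 CPM in the controls and at 0.273, 0, 0.304 and 0.262 CPM in the shunt libraries. Summed counts were 21 in the shunt libraries and 177 in the controls, a ratio of 0.191 (95% interval 0.115 to 0.30, counting error only). The fitted log2 change was -2.49 (standard error 0.535, adjusted p = 0.0374), or -2.22 (adjusted p = 0.0857) without shunt 1 and shunt 2.

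ALDH1A1, an enzyme that makes retinoic acid from retinaldehyde, was lower in the shunt libraries. It was at 325, 571, 286 and 551 CPM in the controls and at 83.2, 51.6, 25.2 and 167 CPM in the shunt libraries. Shunt 4, the highest of its group, was still below the lowest control. On the log2 scale the change was -2.41 (standard error 0.566, adjusted p = 0.0427), but without shunt 1 and shunt 2 it was -2.18 (adjusted p = 0.299). It was the only tested member of the retinoid list.

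Most tested hormone and clock genes had negative log2 changes. HSD11B1, the enzyme that regenerates active cortisol inside cells, was at 2.90, 1.65, 2.51 and 2.17 CPM in the controls and at 0.819, 0.352, 0.486 and 0.674 CPM in the shunt libraries. No library overlapped, at a low level in both groups. The log2 change was -1.97 (standard error 0.398, adjusted p = 0.0344), or -2.02 (adjusted p = 0.0729) without shunt 1 and shunt 2. The other 3 tested genes of this list were not called by edgeR, and DESeq2 called THRA (adjusted p = 0.0199). THRA, a thyroid hormone receptor, was at 121, 107, 122 and 129 CPM in the controls and at 30.5, 38.3, 80.3 and 97.7 CPM in the shunt libraries. All shunt libraries were below the controls, shunt 1 and shunt 2 the most, and the log2 change was -0.95 (standard error 0.293, adjusted p = 0.0678), or -0.44 (adjusted p = 0.176) without shunt 1 and shunt 2. NR3C1, the glucocorticoid receptor, was at 36.2 to 52.9 CPM in controls and 30.9 to 32.4 in shunt libraries, with a log2 change of -0.42 (standard error 0.164, adjusted p = 0.117), and THRB, the second thyroid hormone receptor, had -0.60 (standard error 0.322, adjusted p = 0.235). The median of the 4 was -0.78, or -1.27 with library totals and -0.45 without shunt 1 and shunt 2.

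HLF, a transcription factor of the clock output, was the 1 of 9 tested circadian genes that was called. It was at 3.12, 2.62, 1.10 and 2.81 CPM in the controls and at 0.137, 0.264, 0.699 and 0.524 CPM in the shunt libraries. All shunt libraries were below all controls, and control 3 was the lowest control. Its log2 change was -2.46 (standard error 0.493, adjusted p = 0.0344), or -1.99 (adjusted p = 0.0936) without shunt 1 and shunt 2. TEF, a close relative of HLF, was at 18.3, 14.6, 14.0 and 14.1 CPM in the controls and at 6.01, 1.85, 10.2 and 8.99 CPM in the shunt libraries, again without overlap. Shunt 2 was far below the rest, and the log2 change of -1.15 (standard error 0.351, adjusted p = 0.0671) missed the threshold in edgeR but not in DESeq2 (adjusted p = 0.0162). CRY1, a repressor of the clock, also did not overlap, at -0.55 (standard error 0.197, adjusted p = 0.0976). CLOCK, a core activator, overlapped and was at -0.82 (standard error 0.358, adjusted p = 0.152). Both were called with library totals (adjusted p = 0.0450 and 0.0485). Of the 9 genes 7 had a negative log2 change, against 49.3% of all tested genes. Their median was -0.40, and -0.97 with library totals. The labels give no time of day, and its part was not tested.

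GSN, gelsolin, which severs and caps actin filaments, was lower. It was at 577, 399, 465 and 629 CPM in the controls and at 199.6, 140.1, 159 and 348 CPM in the shunt libraries. The highest shunt library, shunt 4, stayed below the lowest control. In the fit the log2 change was -1.29 (standard error 0.277, adjusted p = 0.0374), or -1.04 (adjusted p = 0.139) without shunt 1 and shunt 2. TES, a protein of focal adhesions and actin fibres, was higher on average, at 5.54, 5.28, 6.70 and 4.30 CPM in the controls and at 10.1, 10.3, 17.4 and 6.56 CPM in the shunt libraries. Shunt 4 was just below the highest control, so the groups overlapped, and the log2 change was 1.03 (standard error 0.259, adjusted p = 0.0457), or 1.11 (adjusted p = 0.101) without shunt 1 and shunt 2. Of 5 tested cytoskeleton genes only GSN was called, and ACTB, non-muscle actin, had a log2 change of 0.72 (standard error 0.325, adjusted p = 0.162), or 1.14 (adjusted p = 0.101) without shunt 1 and shunt 2. ACTB has close copies too. TUBA4A, an alpha tubulin, had 0.78 (standard error 0.345, adjusted p = 0.157) and CFL1, cofilin, which cuts actin filaments, 0.26 (standard error 0.185, adjusted p = 0.362).

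ATF4, the transcription factor that carries the integrated stress response, was higher. It was at 158, 139.7, 175 and 133 CPM in the controls and at 255, 386, 220.1 and 235 CPM in the shunt libraries. Every shunt library exceeded every control, shunt 2 by the most. This was a log2 change of 0.86 (standard error 0.213, adjusted p = 0.0455), or 0.57 (adjusted p = 0.149) without shunt 1 and shunt 2. PDIA3, a protein folding enzyme of the endoplasmic reticulum and the other tested member of the stress response list, had -0.20 (standard error 0.186, adjusted p = 0.508). CIB1, a calcium- and integrin-binding protein, was at 6.60, 5.46, 6.26 and 6.78 CPM in the controls and at 13.1, 21.0, 11.9 and 10.6 CPM in the shunt libraries. No library overlapped and shunt 2 was again the highest, with a log2 change of 1.16 (standard error 0.226, adjusted p = 0.0336), or 0.81 (adjusted p = 0.0799) without shunt 1 and shunt 2. ATP1B1, a subunit of the sodium pump, had a log2 change of -0.20 (standard error 0.306, adjusted p = 0.697). C3H12orf29, named for its place in the genome, was at 4.04, 4.64, 5.54 and 4.47 CPM in the controls and at 9.97, 9.25, 8.11 and 12.2 CPM in the shunt libraries. Here shunt 4 was the highest, and the log2 change was 1.08 (standard error 0.215, adjusted p = 0.0343), or 1.11 (adjusted p = 0.0700) without shunt 1 and shunt 2.

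The natriuretic peptides, the classic markers of a loaded ventricle, were very high in some shunt libraries and were not called by edgeR. NPPB, which encodes B-type natriuretic peptide, was at 9.38, 0, 0.386 and 4.81 CPM in the controls and at 68.4, 205, 2520.0 and 6.18 CPM in the shunt libraries. Shunt 3 was far above all others, shunt 1 and shunt 2 exceeded the controls, and shunt 4 lay inside the control range. The fitted log2 change was 7.55 (standard error 1.99, adjusted p = 0.0560), or 8.34 (adjusted p = 0.144) without shunt 1 and shunt 2. Without shunt 3 it was 4.63 (adjusted p = 0.0691), and without shunt 4 it was 7.96 and passed (0.0217). NPPB was also called by DESeq2 (adjusted p = 0.000309) and with the stricter filter (0.0480). NPPA, which encodes atrial natriuretic peptide, was at 49.7, 0.689, 5.63 and 13.7 CPM in the controls and at 69.2, 142, 3589 and 9.85 CPM in the shunt libraries. The order of the shunt libraries was the same, and the log2 change was 5.76 (standard error 1.90, adjusted p = 0.0895). It was 2.06 without shunt 3 (adjusted p = 0.299) and 6.17 without shunt 4 (0.0447), and DESeq2 gave it no adjusted p. NPPA was the only tested atrial marker, and the part of atrial tissue in these values was not tested.

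Of the 6 tested genes of muscle and wall stress, both peptides included, edgeR called 0, with 4 at an unadjusted p under 0.05, and DESeq2 called NPPB and CRYAB. CRYAB, a small heat shock protein of muscle, was at 1121, 1084, 1452 and 1137 CPM in the controls and at 1357, 2082, 2357 and 1653 CPM in the shunt libraries. Shunt 1 fell below control 3 and the other shunt libraries were above it, with a log2 change of 0.64 (standard error 0.214, adjusted p = 0.0819). HSPA1A, an inducible heat shock protein, had 0.43 (standard error 1.05, adjusted p = 0.821). FHL1, a LIM protein of the sarcomere, had a log2 change of -0.60 (standard error 0.219, adjusted p = 0.0977). The 3 tested sarcomere genes, of which edgeR and DESeq2 called 0 with 0 at an unadjusted p under 0.05, had log2 changes of 0.33 for MYL2, 0.07 for MYOZ2 and -0.23 for TPM1. TPM1, a tropomyosin, was at 7009, 7285, 7467 and 7705 CPM in the controls and at 3756, 4821, 8538 and 8047 CPM in the shunt libraries, with shunt 1 and shunt 2 below the controls and shunt 3 and shunt 4 above them.

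Of 10 tested genes of vessel growth and tone edgeR called 0, with 5 at an unadjusted p under 0.05, and DESeq2 called VEGFA higher and FGF2 and AGTR1, an angiotensin receptor, lower. VEGFA, the main growth factor of vessel lining, was at 102, 116, 98.7 and 72.3 CPM in the controls and at 150.1, 144, 211 and 128 CPM in the shunt libraries. Every shunt library was above every control and shunt 3 was the highest. The log2 change of 0.70 (standard error 0.194, adjusted p = 0.0524) was just beyond the threshold, and it was 0.77 (adjusted p = 0.0936) without shunt 1 and shunt 2. It was called with size factors of the DESeq2 kind (0.0486), with the stricter filter (0.0479) and by DESeq2 (0.00580). SLCO2A1, a prostaglandin transporter, had 0.73 (standard error 0.259, adjusted p = 0.0933), and ARNT, a partner of the hypoxia factors, 0.41 (standard error 0.196, adjusted p = 0.186). KDR, the main receptor of VEGFA, was at 44.2, 59.1, 57.9 and 45.8 CPM in the controls and at 72.6, 82.1, 36.4 and 71.9 CPM in the shunt libraries. Shunt 3 was the lowest of all 8 libraries, and the other shunt libraries were above the controls. The 4 tested endothelial markers, none with an unadjusted p under 0.05 and none called by edgeR or DESeq2, ranged from 0.03 (ICAM1) to 1.56 (SELP) on the log2 scale, with 0.29 for AQP1, and their sum ran from 68.0 to 89.0 CPM in the controls and from 55.0 to 152 in the shunt libraries. ICAM1 and AQP1 were below every control in shunt 1 to shunt 3 and above all in shunt 4, at 14.3 and 62.2 CPM. SELP was above all controls in shunt 2 and shunt 4 only.

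**Figure D5:**
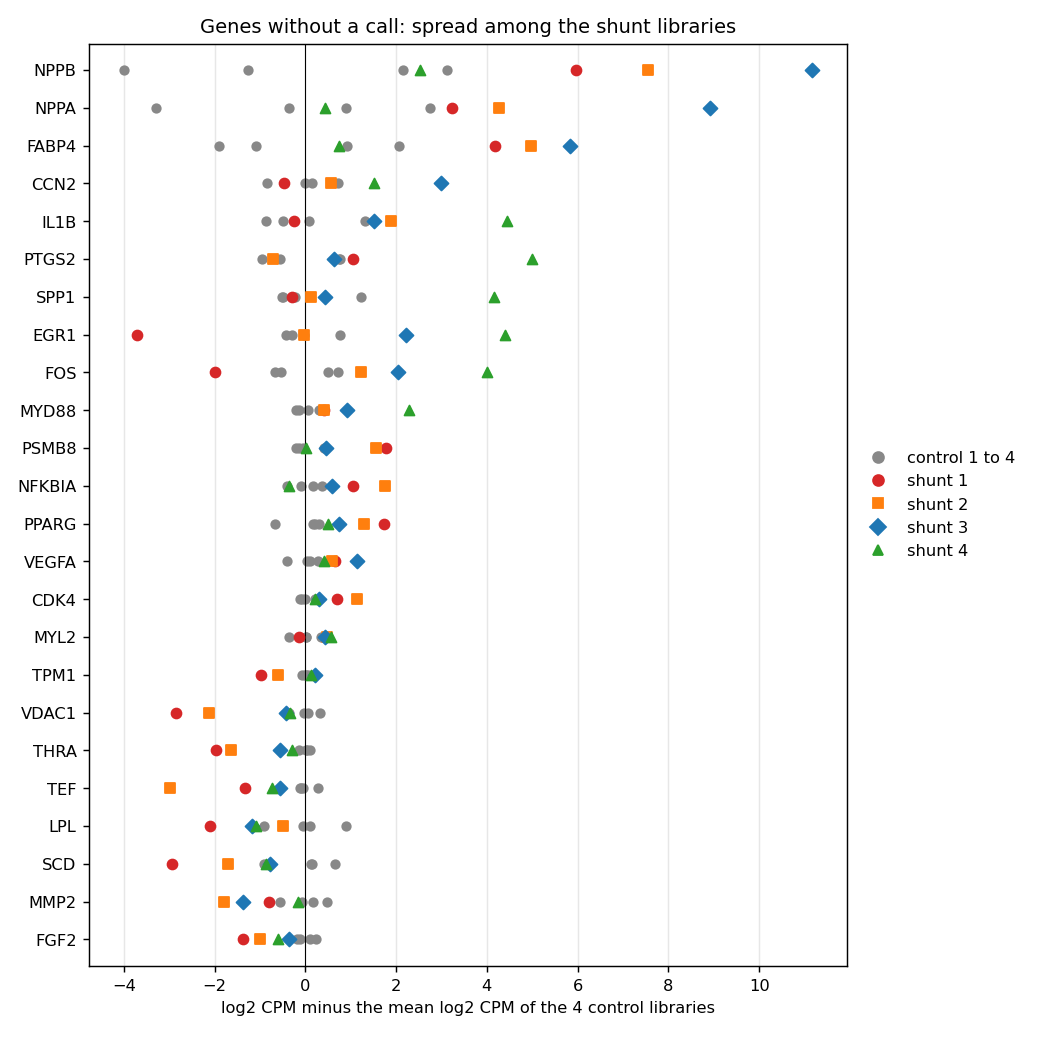
Each row is a gene without an edgeR call, and the points give each library's log2 CPM minus the control mean, controls in grey. NPPB and NPPA are highest in shunt 3, and IL1B and PTGS2 are highest in shunt 4.

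In the list of Toll-like receptors and innate sensors edgeR called 0 of 11 tested genes, with 4 at an unadjusted p under 0.05. DESeq2 called IL1B and MYD88 (adjusted p = 0.0180 and 0.0394). The list also holds the cytokines IL1B and IL18, the adaptor MYD88 and the inhibitor NFKBIA, so these counts are not of receptors alone. IL1B, an inflammatory cytokine of myeloid cells, was at 0.0200, 0.0459, 0.331 and 0.102 CPM in the controls and at 0.0683, 0.528, 0.395 and 3.45 CPM in the shunt libraries. Shunt 4 was far above the rest and shunt 1 lay among the controls, with shunt 2 and shunt 3 a little above them. Its log2 change was 3.14 (standard error 1.005, adjusted p = 0.0743), and 1.36 (adjusted p = 0.322) without shunt 4. PTGS2, the inducible cyclooxygenase, was at 0.6002, 0.138, 0.607 and 0.203 CPM in the controls and at 0.751, 0.176, 0.547 and 12.6 CPM in the shunt libraries, with shunt 4 alone above the controls by a wide margin. It had a log2 change of 3.14 (standard error 1.03, adjusted p = 0.0802), and 0.33 without shunt 4. Without shunt 3 both IL1B and PTGS2 were called (adjusted p = 0.0415 and 0.0411). MYD88, the adaptor of Toll-like receptors, was above all controls in each shunt library, at 0.780, 0.827, 1.13 and 0.949 CPM in the controls and at 1.23, 1.23, 1.79 and 4.68 CPM in the shunt libraries. Shunt 4 was again the highest, and the log2 change was 1.30 (standard error 0.452, adjusted p = 0.0893), or 1.79 (adjusted p = 0.0845) without shunt 1 and shunt 2. TLR5, the receptor for flagellin, was at 1.60, 1.19, 1.43 and 1.08 CPM in the controls and at 2.05, 8.63, 0.881 and 2.32 CPM in the shunt libraries. Shunt 2 stood far above the others and shunt 3 was the lowest of all, with 1.34 (standard error 0.614, adjusted p = 0.169). NFKBIA, an inhibitor of NF-kappaB, was at 265, 193, 231 and 155 CPM in the controls and at 426, 699.8, 311 and 162 CPM in the shunt libraries. It was highest in shunt 1 and shunt 2, with shunt 4 among the controls, and its log2 change was 0.92 (standard error 0.370, adjusted p = 0.125). The listed genes thus did not share 1 order of the shunt libraries.

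Of 11 tested genes of antigen presentation and interferon edgeR called 0, with 4 at an unadjusted p under 0.05, and DESeq2 called PSMB8, TAPBP and IFNAR2 higher. PSMB8, a subunit of the immunoproteasome, was at 29.7, 28.5, 43.5 and 31.6 CPM in the controls and at 114, 97.1, 44.8 and 33.4 CPM in the shunt libraries. Shunt 1 and shunt 2 were well above the controls and shunt 4 was among them. On the log2 scale the change was 1.11 (standard error 0.321, adjusted p = 0.0582), or 0.21 (adjusted p = 0.638) without shunt 1 and shunt 2. TAPBP, which helps load peptides on MHC class I, was above all controls in each shunt library, with 0.46 (standard error 0.156, adjusted p = 0.0864), or -0.20 with library totals. The interferon receptor chains went apart, with 0.90 (standard error 0.299, adjusted p = 0.0809) for IFNAR2 and -0.48 (standard error 0.209, adjusted p = 0.155) for IFNAR1.

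Markers of immune cells were low in both groups. Of 4 tested myeloid markers edgeR called 0, with 1 at an unadjusted p under 0.05, and DESeq2 called IL1B. Their sum ran from 14.5 to 26.8 CPM in the controls and from 10.4 to 24.2 in the shunt libraries, led by MRC1, a macrophage receptor, at 12.7 to 23.7 and 8.20 to 22.3 CPM, with CD14 at a log2 change of -0.10 and ITGAM at 0.02. The 3 tested lymphocyte and natural killer markers, GNLY, CD3E and CD4, had 0 calls by edgeR or DESeq2 and 0 unadjusted p-values under 0.05, and summed to 1.04 to 2.30 CPM in the controls and 1.41 to 2.29 in the shunt libraries. TPSB2, a tryptase of mast cells, was called lower, with 77 counts summed over the controls and 2 over the shunt libraries. It was at 0.280, 1.52, 0.496 and 0.407 CPM in the controls and at 0.137, 0, 0 and 0 CPM in the shunt libraries. The only shunt library with any count was shunt 1, and the ratio of summed counts after scaling was 0.0417 (95% interval 0.004965 to 0.156, counting error only). Its edgeR adjusted p was 0.0386, or 0.0601 without shunt 1 and shunt 2. FCER1A, the other mast cell gene in the table, had 17 and 5 counts and was not tested.

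The remaining lists had no call by edgeR or DESeq2. Of the 5 tested insulin-like growth factor binding proteins, which carry these hormones in tissue and blood, IGFBP7 had 0.60 (standard error 0.309, adjusted p = 0.216), IGFBP5 -0.63 (standard error 0.362, adjusted p = 0.268), IGFBP6 0.29 (standard error 0.241, adjusted p = 0.446) and IGFBP3 -0.19 (standard error 0.272, adjusted p = 0.675), and 0 had an unadjusted p under 0.05. Of 3 tested genes of apoptosis and autophagy, with 0 such p-values, BCL2L1, which blocks cell death, had -0.58 (standard error 0.276, adjusted p = 0.186), SQSTM1, an autophagy receptor, -0.17 (standard error 0.156, adjusted p = 0.482) and TNFRSF1A, a receptor of tumour necrosis factor, 0.11 (standard error 0.220, adjusted p = 0.776). Of 3 tested redox genes, with 1 such p-value, TXN, thioredoxin, had 0.46 (standard error 0.185, adjusted p = 0.123), SOD1, superoxide dismutase, 0.63 (standard error 0.361, adjusted p = 0.268) and PRDX2, a peroxiredoxin, 0.11 (standard error 0.223, adjusted p = 0.773). The smooth muscle and pericyte genes CNN1 and RGS4, with 0 such p-values, had log2 changes of 0.29 and 0.24. Of 4 immediate early genes, with 1 such p-value, KLF4, a transcription factor, had -0.89 (standard error 0.388, adjusted p = 0.150) and MYC, a growth regulator, -0.20 (standard error 0.456, adjusted p = 0.806).

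Most called genes carry only an Ensembl identifier, 498 of the 522, and names and roles are not given for them. Besides TIMP1, 5 such genes were called in all 8 fits that left out 1 library, and all 5 were higher in the shunt libraries. ENSOARG00000011577 was at 11.9, 7.62, 8.72 and 11.1 CPM in the controls and at 39.6, 63.2, 75.3 and 28.9 CPM in the shunt libraries. Its lowest shunt library was above its highest control, and the log2 change was 2.39 (standard error 0.283, adjusted p = 0.00225), or 2.37 (adjusted p = 0.00925) without shunt 1 and shunt 2. Among called genes without overlap and with at least 5 CPM in the higher group, ENSOARG00000001823 had the largest rise, at 7.82, 14.2, 26.5 and 15.1 CPM in the controls and at 232, 67.4, 223 and 29.97 CPM in the shunt libraries. Shunt 4 was near the highest control, and the log2 change was 3.12 (standard error 0.582, adjusted p = 0.0336). The largest falls were those of ENSOARG00000009795, with a log2 change of -3.60 (standard error 0.682, adjusted p = 0.0336), and ENSOARG00000013280, with -3.48 (standard error 0.668, adjusted p = 0.0340). In both, shunt 4 was the highest shunt library and below every control.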

How the data were processed

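Raw counts for each gene (total counts, per the file headers) were deposited by the authors in 1 table. It has 27054 rows, of which 8671 were empty in every library. The RNA came from an RNeasy Plus Universal Mini extraction and went through QIAseq Stranded mRNA preparation to a NextSeq instrument, per the labels' protocols. Neither aligner, counter and build nor the use of strand in counting is given in the sources used here, so overlapping genes and close copies may share reads, and no coordinates or sequences are printed. Names are those of the table itself, where 24377 rows repeat the identifier and 1850 hold a numbered copy of a shared name, which were tested and counted but not named.

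Counts were analysed in R 4.3.3 with edgeR 4.0.16 (filterByExpr by group, TMM, glmQLFit robust, glmQLFTest) in 1 model of all 12 libraries and their 3 groups, and 13065 genes were tested. Benjamini-Hochberg adjustment ran over all of them, and printed adjusted p-values are from this test unless another is named. The standard error (SE) was taken as |log2 change| over the square root of F, and 2 was the prior count for log2 CPM. Library totals ran from 20041416 to 44946875 in the control and shunt libraries. Single values per library were compared by two-sided exact permutation tests in scipy 1.17.1. Intervals cover counting error only.

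The members and the 42 gene lists were chosen with earlier results of these data known. Of 925 list members 218 matched a name and 37 lists had a tested member. The text names every called gene with a symbol, from each list the tested members with the lowest p (at most 4), a panel and, without a symbol, the 2 largest changes in each direction. The lists for conduction and nerve, epicardium, lymphatic vessels and red blood cells had 0 members in the table. Replicates were compared before averaging, and within a group any pair of libraries had a chi-square of at least 23.8 per gene, so none repeated another's counts. The test was tried on simulated counts with the same spread in every group. The shunt libraries spread more than the controls, so that trial cannot tell how many calls here are false.

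Alternatives were size factors of the DESeq2 kind, library totals, removal of mitochondrially encoded genes, DESeq2 1.42.0, limma 3.58.1 voom with sample quality weights, 2 other filters, a fit of the 8 libraries alone, the mitochondrial share as a covariate, the replicate number as a block, and leaving out libraries.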

Additional observations from a re-analysis of the deposited data

Results flagged for a closer look

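In 22 of 286 groups of 4 libraries 1 library stood apart from the other 3 by Dixon's test at 95%, on log2 CPM, and chance flags about 5% of groups. In the control group control 3 was high for CRYAB at 1452 CPM, LCAT at 23.4 CPM, ND3 at 11610 CPM and SPP1, a matrix phosphoprotein, at 3.83 CPM, and low for GHR at 9.82 CPM. Control 2 was low for PPARG, a regulator of lipid genes, at 1.88 CPM and for NPAS4, an activity-induced transcription factor, at 0 CPM, and control 1 was high for TEF at 18.3 CPM. Control 3 was also high for BGN at 69.9 CPM and control 1 for MYC at 50.3 CPM. Of the shunt libraries, shunt 1 was low for MYL2 at 10034 CPM, ATP5MC2 at 179 CPM and HADHA at 227 CPM and high for TPSB2 at 0.137 CPM, and its 100 most abundant other rows took the lowest share of counts on other genes, 38.2%. Shunt 2 was high for SLC25A4, the ADP/ATP carrier of heart and muscle, at 5561 CPM and low for PEG10 at 0 CPM and for BGN at 10.2 CPM. Shunt 3 was low for KDR at 36.4 CPM, and shunt 4 was high for SPP1 at 29.7 CPM and for CD14, a monocyte receptor, at 4.01 CPM, and low for CD4 at 0.225 CPM. Some of these flags rest on very few counts. NPAS4 had 3, 0, 2 and 2 counts in control 1 to control 4. In shunt 1 to shunt 4 TPSB2 had 2, 0, 0 and 0, CD4 5, 4, 12 and 6, and PEG10 4, 0, 10 and 7.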

How the results depend on the processing

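The count of called genes, 522, became 597 with size factors of the DESeq2 kind, 595 with library totals, 512 without mitochondrially encoded genes, 448 without a filter and 673 with a stricter filter. It became 1975 with DESeq2, 67 with limma voom and sample quality weights, 4 with only the shunt and control libraries in the fit, 8 with the mitochondrial share as a covariate and 64 without shunt 1 and shunt 2. Leaving out 1 library gave 6 to 2169. It fell to 8, 6 and 9 without control 1, control 2 and control 4 and to 36 and 23 without shunt 1 and shunt 2, and it rose to 1784 and 2169 without shunt 3 and shunt 4. The cause was not tested, except that the fit of 8 libraries has fewer samples. With the replicate block the count was 61, all of them among the 522. Same-numbered libraries had correlations of deviations from -0.190 to 0.104, and 0 of the 4 controls correlated best with the shunt library of their number and 1 of the 4 shunt libraries with the control of its number. These correlations cannot settle pairing, since shunt 1 and shunt 2 stood apart from the other shunt libraries. The numbers were not taken to pair the samples because the titles do not state it. Of the 522 genes 519 kept their sign with library totals, and all of those tested kept it elsewhere. No called gene with a symbol changed sign under any alternative run. Since the same libraries chose these genes, the kept signs are a description. The tests of the mitochondrial share and of the other counts kept their direction and missed the threshold under every alternative run, which says nothing of stability where 1 library was left out, since 3 against 4 libraries cannot give an exact p below 0.0571. Nor could the test of the share without shunt 1 and shunt 2 pass, since 2 against 4 libraries cannot give one below 0.133. Only the runs with the share or the counts on a log scale could have passed. Rows for mitochondrial ribosomal or transfer RNA were not found by name, so that alternative was not run.

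Changes of sign concerned genes that were not called, and their cause was not tested. With library totals log2 changes became -0.0796 for SLC25A4, -0.29 for RPL10, -0.50 for RPSA, -0.0903 for CDK4, -0.20 for TAPBP, -0.10 for AURKA, -0.30 for KDR, -0.12 for GAPDH, -0.0609 for DGAT1, -0.0278 for SLIRP, -0.13 for ATP5PD, -0.18 for TXN, -0.23 for MYL2 and -0.49 for CPT1B. With the covariate they became -0.25 for AURKA, 0.0686 for TPM1, -0.0085 for COX2, -0.0917 for ND5, -0.0614 for ND1 and -0.31 for ND4L. Without shunt 1 and shunt 2 they became -0.19 for AURKA and 0.15 for TPM1. Leaving out 1 library moved CPT1B between -0.0706 (without shunt 2) and 0.28, RPSA between -0.0404 (without shunt 3) and 0.21, SPP1 between -0.0732 (without shunt 4) and 2.89, and MRC1 between -0.32 and 0.11 (without shunt 3), with 0.0683 without control 4. Some of the named list members with an unadjusted p of 0.05 or more changed sign too. With library totals this gave -0.35 for CCND2, -0.28 for BMP4, -0.40 for TNFRSF1A, -0.26 for CFL1, -0.0389 for AQP1, -0.23 for ICAM1, -0.32 for ARNT, -0.11 for IGFBP7, -0.33 for IGFBP6, -0.42 for CD3E, -0.49 for ITGAM, -0.42 for NDUFA12, -0.12 for CNN1, -0.30 for RGS4, -0.41 for PRDX2 and -0.52 for MYOZ2. With the covariate this gave -0.16 for BMP4, 0.0879 for ATP1B1, 0.46 for MYC, -0.0232 for IGFBP7, 0.00981 for IGFBP5, 0.082 for IGFBP3, 0.0165 for PDIA3, 0.61 for GNLY, 0.26 for CD4, 0.29 for CD14, -0.0574 for ITGAM and -0.0223 for NDUFA12. Without shunt 1 and shunt 2 this gave -0.18 for BMP4, 0.0638 for ATP1B1, 0.21 for MYC, -0.00818 for IGFBP7, 0.0658 for IGFBP3, 0.0126 for PDIA3, 0.49 for GNLY, -0.00747 for CD3E, 0.30 for CD14 and 0.0416 for ATP5MC1. With voom this gave -0.33 for ICAM1, 0.0735 for IGFBP3, 0.069 for GNLY, -0.18 for CD3E, 0.47 for CD4 and -0.22 for RGS4. With the replicate block this gave -0.55 for ICAM1, -0.25 for HSPA1A, -0.22 for CD3E, 0.099 for CD4 and -0.0834 for ITGAM. Without a filter this gave -0.00102 for ITGAM. Leaving out 1 library moved CCND2 between -0.0754 and 0.61, CCND3 between -0.46 and 0.075, CDK2 between -0.38 and 0.11, TNFRSF1A between -0.15 and 0.25, ATP1B1 between -0.38 and 0.0463, AQP1 between -0.62 and 0.53, ICAM1 between -1.65 and 0.36, HSPA1A between -1.47 and 0.93, MYC between -0.82 and 0.29, IGFBP3 between -0.37 and 0.0324, GNLY between -0.87 and 0.18, CD3E between -0.28 and 0.49, CD4 between -0.46 and 0.30, CD14 between -0.78 and 0.16, ITGAM between -0.19 and 0.21, CNN1 between -0.15 and 0.63, RGS4 between -0.17 and 0.55, PRDX2 between -0.0262 and 0.30 and MYOZ2 between -0.14 and 0.27. At 7140136 other counts in the shallowest library, genes at low levels are measured least well.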

Other observations

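Ribosomal protein genes, myoglobin and immediate early genes, picked after their values were seen, differed among the shunt libraries and edgeR called 0 of them, while DESeq2 called RPL23A, RACK1 and RPS25 (adjusted p = 0.00743, 0.00753 and 0.0130). RPL23A, a protein of the large ribosomal subunit, was at 1026, 884, 1176 and 971 CPM in the controls and at 1535, 2754, 1719 and 1215 CPM in the shunt libraries. Every shunt library was above every control and shunt 2 was far above the rest, with a log2 change of 0.83 (standard error 0.234, adjusted p = 0.0541) in edgeR. RACK1, a scaffold protein of the small subunit, was at 859.6, 749, 1167 and 741 CPM in the controls and at 1793, 4455, 1598 and 933 CPM in the shunt libraries. Shunt 4 overlapped the controls, and the log2 change was 1.32 (standard error 0.373, adjusted p = 0.0551), or 0.50 (adjusted p = 0.319) without shunt 1 and shunt 2. RPS25, of the small subunit, had 0.99 (standard error 0.287, adjusted p = 0.0596). Of the 4 ribosomal protein genes described here (RPL23A, RPS25, RPL10 and RPSA) all 4 had a positive log2 change, and 3 were highest in shunt 2. The changes of RPL10 and RPSA turned negative with library totals. Ribosomal protein genes have many close copies, so reads may be split.

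MB, myoglobin, the oxygen store of muscle, was at 9482, 8853, 10171 and 9560.5 CPM in the controls and at 5347, 6852, 6086 and 10471 CPM in the shunt libraries. Shunt 1 to shunt 3 were below all controls and shunt 4 was above them, and the log2 change was -0.40 (standard error 0.238, adjusted p = 0.276). EGR1, an immediate early transcription factor, was at 7.52, 3.26, 4.28 and 3.56 CPM in the controls and at 0.273, 4.31, 20.7 and 94.8 CPM in the shunt libraries. FOS, another of them, was at 2.38, 2.16, 5.79 and 4.95 CPM in the controls and at 0.819, 8.19, 14.7 and 57.4 CPM in the shunt libraries. Both were highest in shunt 4 and lowest in shunt 1 among all 8 libraries, with log2 changes of 2.69 and 2.41 and adjusted p-values of 0.226 and 0.254. NPAS4, not called at 3.35 (standard error 1.08, adjusted p = 0.0756), was called without shunt 1 and shunt 2, at 4.18 (adjusted p = 0.0343), and by DESeq2 (adjusted p = 0.0183), with counts summed over the group of 58 in the shunt libraries and 7 in the controls, and all shunt counts came from shunt 3 and shunt 4.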
